A study of Mus musculus with 2 samples.

Results

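The genes of oxidative phosphorylation were followed through single bone marrow cells (BMCs) of 1 WT and 1 Cko mouse. Their members were all genes listed in both libraries whose symbol starts with Nduf, Uqcr, Atp5 or mt-, or with Cox followed by a digit from 4 to 8. These were 90 of the 6001 genes listed in both, of which 78 lie in the nuclear genome and 12 in the mitochondrial genome. Both mice were C57BL6/J at postnatal day 21, and the BMCs came from crushed and collagenase-treated forelimbs and hindlimbs after lysis of red blood cells. The Cko mouse carries floxed alleles of Mbtps1, the gene of site-1 protease (S1P), and an Osx-Cre transgene, which deletes the gene in cells that have made osterix. The WT mouse carries the floxed alleles without Cre, so a mouse with Osx-Cre alone is not part of the comparison. Each genotype was 1 library of 1 mouse, so no test was possible, and every interval given here is a 95% interval of counting error only.

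Oxidative phosphorylation passes electrons from NADH and succinate to oxygen through complexes I to IV of the inner mitochondrial membrane, and the ATP synthase uses the proton gradient that this builds. Most subunits are made from nuclear genes and imported, while a small set of core subunits is made inside the mitochondrion from its own genome, so that both genomes must supply each of these complexes except complex II. Red cell precursors need mitochondria for heme synthesis and then clear them before they enter the blood, and neutrophils are known to rely largely on glycolysis.

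Grouped by symbol, the nuclear members held 37 Nduf genes of complex I, the NADH dehydrogenase, and 5 Ndufaf genes, whose products help to assemble it. Ndufa4 was among the 37, although its product is known as a subunit of complex IV, so values for complexes I and IV that this changes are also given with Ndufa4 counted in complex IV. They also held 8 Uqcr genes of complex III, 13 Cox genes of complex IV, the cytochrome c oxidase, and 15 Atp5 genes of the ATP synthase. The 12 mitochondrial members encode subunits of complex I (mt-Nd1 to mt-Nd5 and mt-Nd4l), complex III (mt-Cytb), complex IV (mt-Co1 to mt-Co3) and the ATP synthase (mt-Atp6 and mt-Atp8). Ndufa4l2, a paralog of Ndufa4, met the rule on symbols but was listed in the WT library only, with 13 UMIs (unique molecular identifiers, each standing for 1 captured RNA molecule) in 8 of 6271 cells, and 6 of these UMIs lay in stromal-like cells. It was not counted as a member.

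The WT library held 56382459 UMIs in 6287 barcodes and the Cko library 34447224 UMIs in 3670 barcodes. After a minimum of 200 genes per cell, 6271 and 3662 cells remained, with medians of 6977 and 7440 UMIs. The libraries shared 28 barcodes. Mbtps1 was at 31.9 CPM (UMIs of a gene scaled to a common library total) in the WT library (30.5 to 33.4) and at 31.2 (29.3 to 33.1) in the Cko library, a 3′ count that does not read the deleted exon and therefore checks no label. Xist, which female cells transcribe, was listed in the Cko library and not in the WT library, and the labels give no sex, so genotype and any other difference between these 2 mice cannot be told apart. Outside the erythroid-like cells, hemoglobin RNA made up 1.43% of UMIs in the WT and 0.310% in the Cko, which includes free or mixed-in RNA. This sum also counts macrophage-like cells (51 WT, 9 Cko), whose high hemoglobin share is given below, so it does not measure free RNA alone.

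The cells were clustered with the 90 members left out, and the clusters were named after marker genes. The erythroid-like class (3596 WT and 577 Cko cells) was divided by the share of their UMIs that was hemoglobin RNA, at 2%, 10% and 40%, as an order of maturation. The ranges held 696, 418, 627 and 1855 WT cells and 124, 35, 81 and 337 Cko cells. Near the limit of 40%, 298 WT cells (8.29%) and 47 Cko cells (8.15%) lay within 20% of it. The neutrophil lineage was described as a Ctsg-led and an Elane-led progenitor-like class, an immature neutrophil-like class with Camp, Ngp and Ltf, and a cluster led by Mmp8 that the markers did not name. The other classes were monocyte-like, Igll1-led and Myl4-led pro/pre-B-like, B-like, T/NK-like, macrophage-like, stromal-like and basophil/mast-like cells and clusters led by Pf4 and Wfdc17. The B-like class drew 23.9% of its WT and 19.4% of its Cko UMIs from immature neutrophil markers and is named beside results that rest on it. In 1 erythroid-like cluster Retnlg, Mmp9 and Ly6d also led, and ratios without it are given with the alternatives.

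Over all cells the nuclear members made up 2.98% of WT and 2.73% of Cko UMIs, and the mitochondrial members 2.44% and 2.28%. Values over all cells depend on the mix of classes, and erythroid-like cells were 3596 of 6271 WT but 577 of 3662 Cko cells. Without them the nuclear members made up 3.07% and 2.79%, and the mitochondrial members 2.67% and 2.34%. The highest levels over all cells within each group belonged to Ndufa4 (1080 CPM in the WT, 907 in the Cko) and, after it, Ndufa2 of complex I (506 and 481), Uqcrh of complex III (748 and 645), Cox8a (1173, WT) or Cox4i1 (1185, Cko) of complex IV, and Atp5g1 (771, WT) or Atp5j (710, Cko) of the ATP synthase. Among the mitochondrial members mt-Atp6 was at 6036 and 5772 CPM, mt-Co3 at 4737 and 4162, and mt-Co1 at 3433 and 4104. These levels count 3′ ends, 1 for each molecule, and were not divided by length.

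The share of UMIs in the nuclear members differed more than 4-fold between classes of at least 50 cells. In the WT the erythroid-like cells with 2 to 10% and under 2% hemoglobin were highest, at 4.10% and 4.08%, and their counting intervals overlapped. The Ctsg-led progenitors followed at 3.87%, then monocyte-like cells at 3.53% and Igll1-led pro/pre-B-like cells at 3.51%, whose intervals also overlapped, and Elane-led progenitors at 3.42%. Erythroid-like cells with 10 to 40% hemoglobin stood at 3.15%, Myl4-led pro/pre-B-like cells at 3.11%, the Pf4-led cluster at 3.05% and macrophage-like cells at 2.61%. The lowest shares were those of immature neutrophil-like cells (1.77%), the Mmp8-led cluster (1.31%) and erythroid-like cells over 40% hemoglobin (0.902%). In the Cko the same classes closed the list, at 1.81%, 1.34% and 0.906%, while the Ctsg-led progenitors opened it at 3.78%, ahead of erythroid-like cells under 2% hemoglobin at 3.71%. Much of the UMIs in these lowest classes was hemoglobin or immature neutrophil marker RNA, which lowers the share of every other gene. Counted outside that RNA, as given below, the nuclear shares of these classes were higher.

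The mitochondrial members followed another order. Macrophage-like cells (4.40% in 51 WT cells and 7.14% in 9 Cko cells) and stromal-like cells (5.45% in 30 and 5.04% in 18) held the highest shares in the WT, and 43.1% and 43.3% of their WT cells exceeded 5%. Dividing the mitochondrial by the nuclear UMIs gave 1.69 for WT macrophage-like and 1.95 for WT stromal-like cells, against 1.21 in the Pf4-led cluster, 1.13 in Myl4-led pro/pre-B-like cells and 0.887 or less in the progenitor-like and erythroid-like classes. In the Cko the ratios were 2.73, 1.82, 1.2 and 1.06 for these 4 classes. The B-like class also had more mitochondrial than nuclear UMIs in both libraries, with shares of 2.28% and 2.15% in the WT and 2.94% and 1.98% in the Cko. So did Cko T/NK-like cells, with 2.91% and 2.48%. Cko erythroid-like cells under 2% hemoglobin had nearly equal shares, at 3.65% and 3.71%. Immature neutrophil-like cells were at 0.593 (WT) and 0.601 (Cko) and the Mmp8-led cluster at 0.503 and 0.447. Hemoglobin RNA was 21.5% of UMIs in WT macrophage-like cells and 9.32% in Cko ones, and its part in their member shares was not tested.

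**Figure D1:**
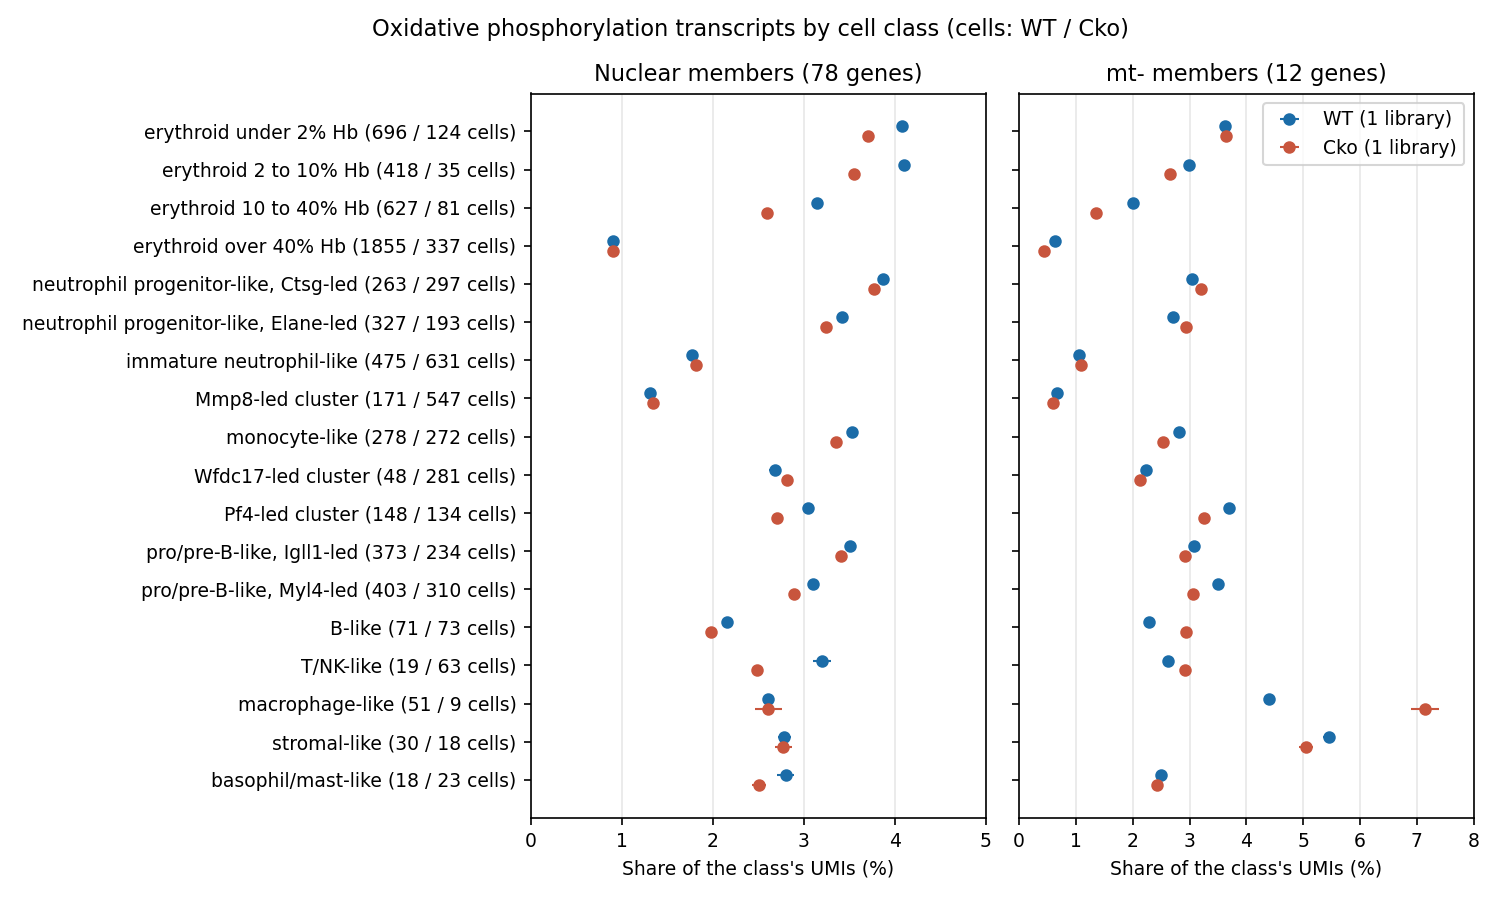
Share of UMIs in the 78 nuclear members (left) and the 12 mitochondrial members (right), in % of the UMIs of each class, for the WT and Cko libraries, with counting intervals. The nuclear share is lowest in erythroid-like cells over 40% hemoglobin (0.902% WT, 0.906% Cko) and in the Mmp8-led cluster, and the mitochondrial share is highest in stromal-like and macrophage-like cells. Hemoglobin or immature neutrophil marker RNA makes up much of the UMIs in the classes with the lowest nuclear shares.

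Single cells of a class spread around these sums. In WT erythroid-like cells under 2% hemoglobin the middle 50% of cells had nuclear shares from 3.85 to 4.31%, and in those over 40% from 0.466 to 1.15%. The same cells had mitochondrial shares from 3.19 to 3.92% and from 0.293 to 0.741%. Across the cells of a class, the Pearson correlation of the mitochondrial with the nuclear share ran from -0.12 to 0.69 over 14 WT classes and from -0.25 to 0.47 over 14 Cko classes of at least 50 cells. The 0.69 was that of the B-like class, and without it the highest WT value was 0.57, in immature neutrophil-like cells. These are descriptions of cells of 1 library, whose 2 shares have the same UMI total as denominator.

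Each complex held a part of the nuclear members' UMIs that moved within a limited range over classes. Complex I made up 29.0 to 37.7% of the nuclear members' UMIs over the WT classes of at least 50 cells and 29.6 to 37.8% over the Cko classes, lowest in erythroid-like cells over 40% hemoglobin and highest in the Mmp8-led cluster in both libraries. With Ndufa4 counted in complex IV, a choice made after seeing the data, complex I ran from 25.1 to 35.8% and from 26.6 to 35.7% between the same classes. Complex IV made up 28.6 to 33.1% and 28.8 to 34.0% (31.8 to 36.1% and 32.4 to 37.0% with Ndufa4), the ATP synthase 22.2 to 26.5% and 21.0 to 25.2%, and complex III 9.60 to 13.1% and 9.52 to 12.9%. The assembly factors had the widest relative range, from 0.262 to 0.676% in the WT and from 0.281 to 0.641% in the Cko, and were lowest in the Mmp8-led cluster and highest in erythroid-like cells under 2% hemoglobin.

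From the least to the most hemoglobinized erythroid-like cells both groups went down more than 4-fold. In the WT the nuclear share went from 4.08% through 4.10% and 3.15% to 0.902%, and in the Cko from 3.71% through 3.55% and 2.60% to 0.906%. The mitochondrial share went from 3.62% through 2.99% and 2.01% to 0.628% in the WT, and from 3.65% through 2.66% and 1.35% to 0.433% in the Cko. As log2 ratios of the last to the first range, these were -2.18 (-2.19 to -2.17) and -2.03 (-2.05 to -2.01) for the nuclear and -2.53 (-2.54 to -2.51) and -3.07 (-3.10 to -3.05) for the mitochondrial members. A member was called higher or lower where the UMIs of both classes together reached 100 and the ratio was at least 1.5-fold. All 77 nuclear members that reached 100 UMIs were lower in the WT, where 80.2% of all genes were, and 73 of 74 were lower in the Cko, where 75.8% were.

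Hemoglobin made up 67.9% of UMIs in the last WT range and 67.2% in the last Cko range, which lowers the share of every other gene, so the members were also counted against the UMIs outside hemoglobin. The median over all genes then moved from -2.13 to -0.50 in the WT. Outside hemoglobin the nuclear share went from 4.10 to 2.81% in the WT and from 3.72 to 2.77% in the Cko, log2 ratios of -0.55 and -0.43. The mitochondrial share went from 3.64 to 1.96% and from 3.66 to 1.32%, log2 ratios of -0.89 (-0.91 to -0.88) and -1.47 (-1.50 to -1.44). The mitochondrial members were lower already in the middle of the series. Erythroid-like cells with 10 to 40% hemoglobin were at -0.02 (nuclear) and -0.50 (mitochondrial) against the first range in the WT and at -0.10 and -1.01 in the Cko. By complex the log2 ratios were -0.65 and -0.53 for complex I, -0.67 and -0.39 for complex III, -0.47 and -0.33 for complex IV, -0.43 and -0.44 for the ATP synthase, and -1.51 and -1.29 for the assembly factors, WT before Cko. With Ndufa4 counted in complex IV, complex I was at -0.70 and -0.53 and complex IV at -0.45 and -0.34. Complex II, succinate dehydrogenase, whose 4 genes are outside the rule, stood at -1.50 and -1.48.

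Member by member, 44 of 77 nuclear genes were lower and 3 higher in the WT outside hemoglobin, beside 48.4% lower and 26.5% higher among all genes. In the Cko 36 of 74 were lower and 2 higher, beside 44.3% and 31.0%. The counts of lower nuclear members lay near these shares of all genes, and those of higher members below them. Of the mitochondrial members 9 of 12 were lower in the WT and 11 of 12 in the Cko, and none was higher. Cox6a2 stayed under 100 UMIs in both libraries, and Atp5g2, Ndufaf1 and Ndufaf7 in the Cko.

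The largest fall was that of Ndufaf4, an assembly factor of complex I (chr4:24898083-24905001, plus strand). It went from 103 to 4.56 CPM outside hemoglobin in the WT and from 88.4 to 4.58 in the Cko, log2 ratios of -4.50 (-5.31 to -3.79) and -4.27 (-6.16 to -2.89). Atp5g1, 1 of 3 genes that encode the same subunit c of the proton-driven rotor (chr11:96068852-96075670), went from 1565 to 159 (-3.30) and from 1298 to 125 (-3.38). Ndufb5, an accessory subunit of complex I, was at -2.92 and -3.94, and the assembly factor Ndufaf2 at -2.46 and -2.76. Opposite to these, Ndufaf3 was at 0.72 (0.48 to 0.95) and 1.21 (0.71 to 1.70). It went from 37.4 to 61.5 CPM in the WT and from 30.3 to 69.9 in the Cko. Ndufb11 (chrX:20615326-20617619) was at 0.62 and 0.56, from 301 to 463 and from 313 to 461, and Atp5h, a subunit of the peripheral stalk, at 0.61 and 0.48. Ndufb9, Cox6a1 and Atp5f1 lay between 0.27 and 0.60 in both libraries, and Cox4i1 at 0.09 and 0.34. Assembly factors of complex I were therefore found at both ends of the list.

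The promoters of the 2 members with the lowest and the 2 with the highest of these ratios, among those with a RefSeq promoter whose upstream bases lie outside the annotated gene, are shown to set genes of opposite course beside each other. Each is the 250 bases upstream of the start in GRCm38.p6, 5′ to 3′ on the strand of the gene, at chr4:24897833-24898082 (plus) for Ndufaf4, chr13:108158626-108158875 (minus) for Ndufaf2, chrX:20617620-20617869 (minus) for Ndufb11 and chr9:108567437-108567686 (minus) for Ndufaf3. Capitals mark matches to motifs of NRF1 and SP1.
Ndufaf4: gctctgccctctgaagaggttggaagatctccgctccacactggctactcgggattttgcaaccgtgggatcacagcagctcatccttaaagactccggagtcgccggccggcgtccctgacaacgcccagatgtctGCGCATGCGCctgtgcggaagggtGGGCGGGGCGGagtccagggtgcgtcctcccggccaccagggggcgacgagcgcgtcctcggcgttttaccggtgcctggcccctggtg
Ndufaf2: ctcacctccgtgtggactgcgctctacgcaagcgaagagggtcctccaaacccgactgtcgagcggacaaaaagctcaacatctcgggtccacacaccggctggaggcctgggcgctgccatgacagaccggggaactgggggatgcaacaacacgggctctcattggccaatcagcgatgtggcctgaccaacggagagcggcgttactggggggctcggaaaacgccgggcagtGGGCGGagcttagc
Ndufb11: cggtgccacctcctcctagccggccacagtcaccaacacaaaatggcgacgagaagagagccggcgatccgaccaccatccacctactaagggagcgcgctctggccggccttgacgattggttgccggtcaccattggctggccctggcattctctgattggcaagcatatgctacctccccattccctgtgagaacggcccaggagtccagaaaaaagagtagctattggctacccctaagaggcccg
Ndufaf3: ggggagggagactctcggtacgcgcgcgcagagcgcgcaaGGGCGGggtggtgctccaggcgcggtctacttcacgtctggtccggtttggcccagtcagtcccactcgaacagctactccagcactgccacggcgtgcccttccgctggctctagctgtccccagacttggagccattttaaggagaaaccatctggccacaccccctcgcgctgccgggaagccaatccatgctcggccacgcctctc
The letters searched on both strands were the NRF1 palindrome (NRF1 is a factor known to drive respiratory chain genes), CCGGAAG for ETS factors such as GABPA, AAGATGGC for YY1 and GGGCGG for SP1, and a stretch may match more than 1 of them. Among the 66 members with a promoter entry, 14 (21.2%) held the NRF1 letters, against 5.64% of the promoters of 27025 genes. The ETS letters were in 18.2% of the members and 7.83% of all genes, the YY1 letters in 1.52% and 1.83%, and the SP1 letters in 39.4% and 35.4%. Ndufaf4 held 1 NRF1 match and 2 SP1 matches, Ndufaf2 and Ndufaf3 1 SP1 match each, and Ndufb11 no match. A match describes these letters in this window and is not evidence of binding.

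**Figure D2:**
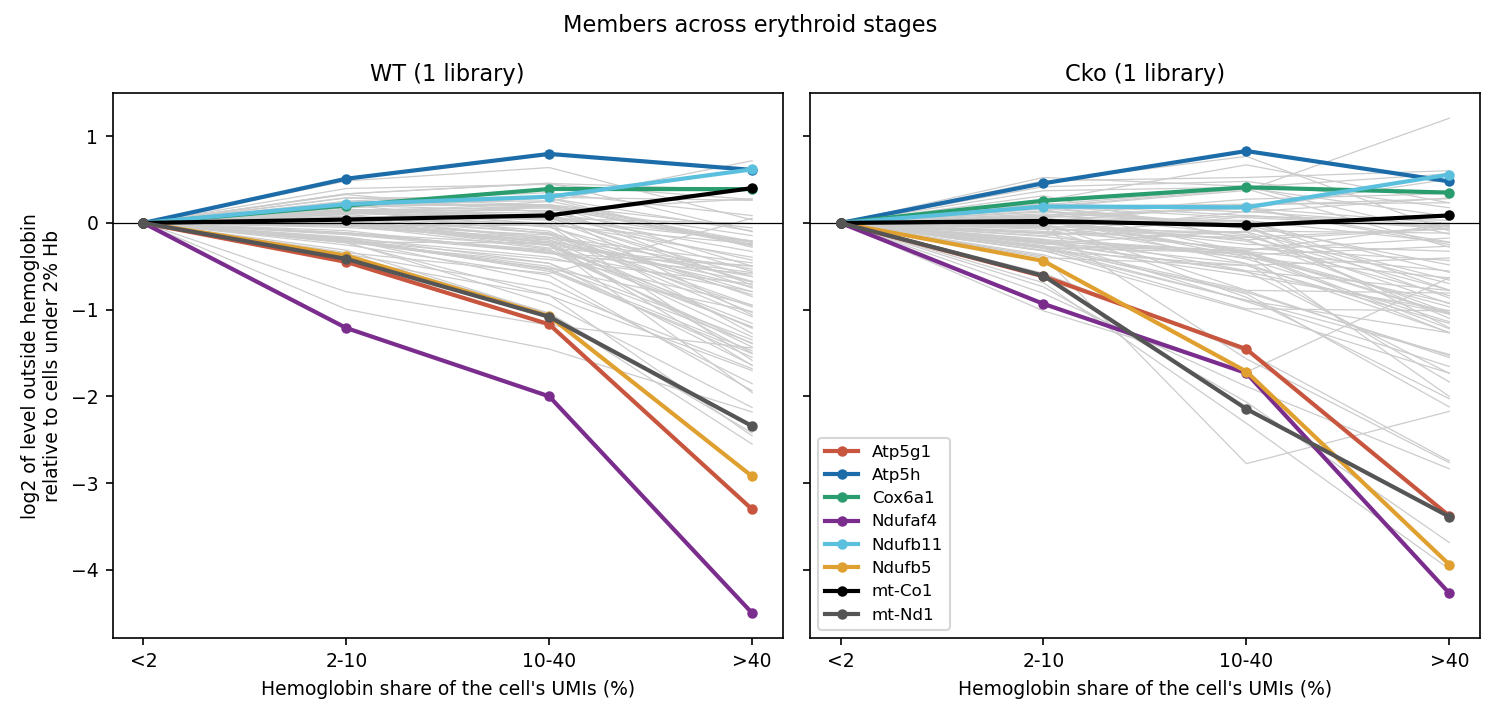
Level of each member (1 line per gene, 8 of them coloured) in CPM outside hemoglobin, as log2 relative to cells under 2% hemoglobin, over the 4 hemoglobin ranges in % (horizontal axis), in the WT (left) and the Cko (right). Ndufaf4, Atp5g1, Ndufb5 and mt-Nd1 end lowest among the coloured genes, and Ndufb11 (0.62 WT, 0.56 Cko) and Atp5h (0.61, 0.48) end above 0.

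The mitochondrial members had unequal ratios, although the mitochondrial genome is known to be transcribed into long precursors that hold many genes each. Outside hemoglobin, mt-Nd3 was at -2.55 and -3.99 (WT, Cko), mt-Nd2 at -2.42 and -3.69, mt-Nd1 at -2.34 and -3.39 and mt-Cytb at -1.70 and -2.83. mt-Nd4 was at -1.51 and -2.74 and mt-Nd4l at -1.44 and -2.17. Ratios of the complex IV and ATP synthase genes and of mt-Nd5 were nearer to 0. mt-Nd5 was at -0.50 and -1.01, mt-Atp8 at 0.05 and -0.63, mt-Atp6 was at -1.02 and -1.73, mt-Co3 at -0.79 and -1.52 and mt-Co2 at -0.71 and -1.27. By position mt-Atp8 (chrM:7766-7969) overlaps mt-Atp6 (chrM:7927-8607), and mt-Nd4l (chrM:9877-10173) overlaps mt-Nd4 (chrM:10167-11544). The WT library held 3192 UMIs of mt-Atp8 against 339910 of mt-Atp6, and 2832 of mt-Nd4l against 73241 of mt-Nd4. Counts of mt-Atp8 and mt-Nd4l may therefore not stand for separate RNAs, and no separate course is read from them. mt-Co1, the catalytic subunit of cytochrome c oxidase (chrM:5328-6872), stood at 4102 and 5420 CPM in the first and last range of the WT and at 4594 and 4878 in the Cko, log2 ratios of 0.40 (0.38 to 0.43) and 0.09 (0.04 to 0.14).

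As a share of the 12 mitochondrial members' UMIs, a measure free of hemoglobin, mt-Co1 went through 11.3%, 13.4%, 16.9% and 27.7% over the 4 erythroid ranges in the WT and through 12.6%, 16.6%, 24.8% and 36.9% in the Cko. mt-Nd1 (chrM:2751-3707) went through 13.3%, 11.6%, 8.90% and 4.88% and through 11.7%, 9.98%, 5.32% and 3.09%. Both genes took the same direction in the neutrophil lineage. From Elane-led progenitors through immature neutrophil-like cells to the Mmp8-led cluster, mt-Co1 made up 14.1%, 22.6% and 28.0% in the WT and 17.1%, 28.0% and 36.8% in the Cko, and mt-Nd1 11.8%, 6.75% and 5.74% in the WT and 9.72%, 5.18% and 3.89% in the Cko. The Igll1-led pro/pre-B-like cells were at the other end, with 10.9% mt-Co1 and 15.4% mt-Nd1 in the WT and 12.7% and 14.4% in the Cko. mt-Atp6 ran from 18.8 to 28.4% over the WT classes and from 17.8 to 31.1% over the Cko classes.

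The Cko library stood apart from the WT library in this composition in nearly every class. The share of mt-Co1 was higher in the Cko in all 18 classes, and the shares of mt-Co3, mt-Nd2, mt-Nd3 and mt-Nd4 were lower in all 18. mt-Nd1 was lower in 17, the exception being stromal-like cells, and mt-Atp6 higher in 16. The classes of 1 library share its preparation and sequencing, so a shift common to all classes is 1 observation of 2 libraries, and genotype, mouse and library cannot be told apart in it.

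**Figure D3:**
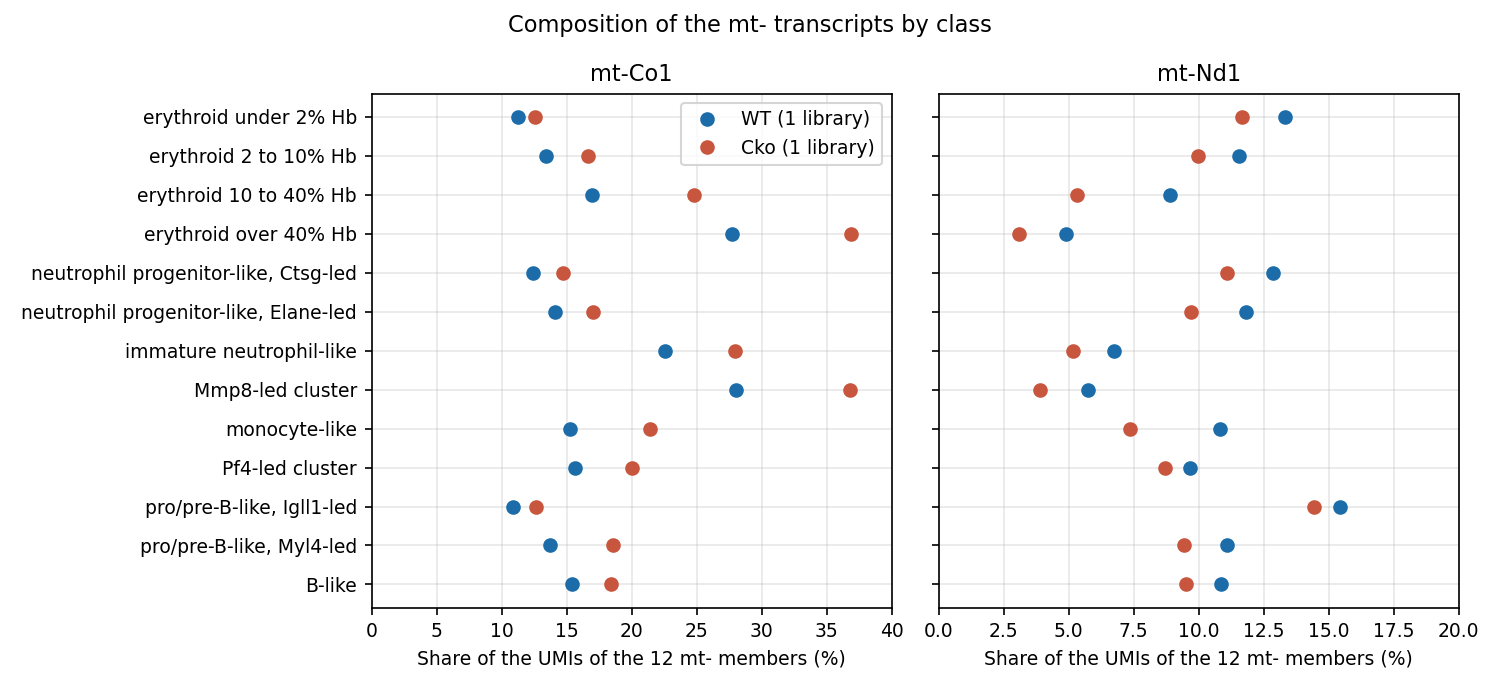
Share of the 12 mitochondrial members' UMIs, in %, held by mt-Co1 (left) and mt-Nd1 (right) in 13 classes, 1 point for the WT and 1 for the Cko library. mt-Co1 is highest in erythroid-like cells over 40% hemoglobin (27.7% WT, 36.9% Cko) and in the Mmp8-led cluster, where mt-Nd1 is low, and the Cko point lies to the right of the WT point for mt-Co1 in each class.

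Other mitochondrial genes, from lists of related genes, set the members' course in the erythroid-like cells beside that of their surroundings. As above, 48.4% (WT) and 44.3% (Cko) of all genes were lower in this step. Outside hemoglobin, from under 2% to over 40%, the proteins of the mitochondrial ribosome were lower for 63 of 73 genes in the WT (median -1.95) and 60 of 71 in the Cko (median -1.70), against medians of -0.68 and -0.56 over the nuclear members. All 12 prohibitin, import and chaperone genes were lower in the WT (median -3.17) and all 11 in the Cko (median -2.70). Among them the chaperonin Hspe1 went from 1851 to 89.2 CPM in the WT (-4.38) and was at -5.34 in the Cko. Citrate cycle genes were lower for 7 of 13 and 8 of 13, of which the WT count is near the share of all genes, and glycolysis genes for 9 of 12 (median -1.70) and 7 of 9 (median -2.38). The opposite course was that of Slc25a37, the mitochondrial iron importer mitoferrin, which went from 29.5 to 1831 (5.96, with 6.25 in the Cko), and of Bnip3l, a receptor that marks mitochondria for removal in maturing red cells, which went from 161 to 1753 (3.45, with 3.66 in the Cko).

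In the neutrophil lineage both groups were lower in later classes too. From Elane-led progenitors to immature neutrophil-like cells the nuclear share went from 3.42 to 1.77% in the WT and from 3.25 to 1.81% in the Cko, log2 ratios of -0.95 (-0.96 to -0.93) and -0.84 (-0.86 to -0.83). The mitochondrial share went from 2.71 to 1.05% and from 2.94 to 1.09%, log2 ratios of -1.37 and -1.43. Of the nuclear members 65 of 77 were lower in the WT, where 51.2% of all genes were, and 58 of 74 in the Cko, where 46.5% were.

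The UMIs of immature neutrophil markers (12 genes listed in both libraries, among them Camp, Ngp and Ltf) went in the same step from 9.96 to 47.6% of UMIs in the WT and from 11.6 to 46.1% in the Cko. Counted against the UMIs outside these markers, a choice made after the values were seen, the nuclear share went only from 3.79 to 3.37% in the WT and from 3.67 to 3.36% in the Cko, log2 ratios of -0.17 (-0.18 to -0.15) and -0.13 (-0.14 to -0.12). The mitochondrial share still went from 3.01 to 2.001% and from 3.33 to 2.02%, log2 ratios of -0.59 (-0.61 to -0.57) and -0.72 (-0.74 to -0.71). On this scale 13 of 77 nuclear members were lower and none higher in the WT, beside 21.1% lower and 30.5% higher among all genes, and 11 of 74 were lower and 1 higher in the Cko, beside 18.4% and 31.8%. Of the mitochondrial members 7 of 12 and 9 of 12 were lower and none higher. Complex III had the lowest ratio of the complexes (-0.46 and -0.40), followed by the ATP synthase (-0.19 and -0.15), complex I (-0.12 and -0.09) and complex IV (-0.10 and -0.06). With Ndufa4 counted in complex IV the last 2 changed places, at -0.08 and -0.07 for complex I and -0.14 and -0.09 for complex IV.

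Ndufaf4, Ndufaf2 and Atp5g1, which were among the lowest in the erythroid-like cells, were low here too. Outside the markers Ndufaf4 was at -3.53 (-5.00 to -2.36) in the WT and -2.75 in the Cko, where the 2 classes held 12 and 59 UMIs and so stayed under the limit of 100, Ndufaf2 at -2.07 and -1.41, and Atp5g1 at -1.86 (1097 to 303 CPM) and -1.54 (897 to 309). Uqcr11, a small subunit of complex III, was at -1.09 and -1.11. Ndufb7 was highest in the WT at 0.51 (0.42 to 0.60), with 0.49 in the Cko, and Ndufs4, a subunit of complex I, highest in the Cko at 0.60 (0.43 to 0.76), with 0.34 in the WT. Ndufb11 was at 0.34 and 0.38. Among the mitochondrial members mt-Nd1 was lowest at -1.40 and -1.63 and mt-Co1 highest at 0.09 and -0.01.

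From immature neutrophil-like cells to the Mmp8-led cluster, whose UMIs were 54.2% (WT) and 52.5% (Cko) immature neutrophil markers, the shares were lower again. The nuclear share outside the markers went from 3.37 to 2.86% and from 3.36 to 2.81% (-0.24 and -0.26) and the mitochondrial share from 2.001 to 1.44% and from 2.02 to 1.26% (-0.48 and -0.68). In the WT 17 of 71 nuclear members were lower and 1 higher, beside 32.4% and 13.3% of all genes, and in the Cko 21 of 73 were lower and 1 higher, beside 34.6% and 14.7%. Ndufab1, the mitochondrial acyl carrier protein that is also part of complex I, was lowest in the WT at -1.48 (-2.19 to -0.84), with -1.53 in the Cko. Cox6b2 was lowest in the Cko at -1.60 (-2.05 to -1.18), with -0.78 in the WT. Ndufa13 was at 0.51 and 0.59, Ndufa7 at 0.60 and 0.31, and Cox7a2l at 0.46 and 0.57.

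In the B lineage, from Igll1-led to Myl4-led pro/pre-B-like cells, the groups parted. The nuclear share went from 3.51 to 3.11% in the WT and from 3.41 to 2.90% in the Cko (-0.18 and -0.24), while the mitochondrial share went from 3.08 to 3.50% and from 2.91 to 3.06% (0.18 and 0.07). Of the nuclear members 11 of 76 were lower in the WT and 18 of 76 in the Cko, beside 17.8% and 19.7% of all genes. Ndufaf4 was again lowest, at -1.73 (-2.22 to -1.27) and -2.48 (-3.14 to -1.87), and Atp5g1 at -1.41 and -1.48, from 837 to 316 CPM and from 798 to 286 CPM. Cox7a2l was higher at 0.88 (0.79 to 0.98) and 0.79, from 489 to 902 CPM and from 576 to 996 CPM. Ndufaf3 was at 0.96 and 0.68 and mt-Co1 at 0.52 and 0.62. Ndufaf4, Ndufaf3 and Atp5g1 thus had the same direction in the erythroid-like and pro/pre-B-like cells of both libraries.

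Some subunits are encoded by families of isoforms or have paralogs, and these genes were spread unevenly over the classes. Values here are CPM among the UMIs outside hemoglobin. Cox6b2, known as the testis form of a small subunit of cytochrome c oxidase (chr7:4751792-4753094, minus strand), reached 362 in the WT and 651 in the Cko in erythroid-like cells under 2% hemoglobin, against 21.6 and 23.7 in Igll1-led pro/pre-B-like cells. It gave 26.5% and 40.6% of the Cox6b1 and Cox6b2 UMIs in the former class and 2.6% and 2.7% in the latter. Over the erythroid ranges it went through 362, 310, 308 and 226 in the WT and 651, 538, 523 and 644 in the Cko. Its level in Elane-led progenitors was 96.0 and 137 and in immature neutrophil-like cells 53.7 and 69.6, where hemoglobin RNA, a sign of RNA from erythroid cells, was 0.508% and 0.084% of UMIs. Cox6a2, known as the heart and muscle form, was at 119 and 85.0 in the Pf4-led cluster. It was at 14.4 or below in every other class of either library, where its sum was 41 UMIs or fewer. Markers of more than 1 class tied in the Pf4-led cluster, and which of its cells held Cox6a2 was not tested. Cox6a1 ran from 327 to 1336 over the WT classes of at least 50 cells in both libraries.

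A range was given where the lowest class held more than 3 UMIs. This left out Ndufaf4, Ndufaf2, Atp5g2 and Cox6a2 in the WT, and the levels of Ndufaf4 already differed more between the first and last erythroid ranges, at 103 and 4.56. Over the 12 classes with at least 50 cells in both libraries, Atp5g1 had the widest of the ranges given for nuclear members in the WT, 20.01-fold from 1565 in erythroid-like cells under 2% hemoglobin to 78.2 in the Mmp8-led cluster, and a 16.8-fold range in the Cko. Over the erythroid ranges it went through 1565, 1146, 696 and 159 in the WT and 1298, 847, 474 and 125 in the Cko, while Atp5g3, which encodes the same protein after import, went through 549, 558, 460 and 246 and through 477, 403, 375 and 198. Atp5g1 gave 72.9% and 72.1% of the UMIs of the 3 Atp5g genes in the first range and 38.5% and 37.6% in the last. Atp5g2 was at 41.7 or below in every class with at least 50 cells. The next widest of them in the WT were those of Cox6b2 (16.8-fold), Ndufab1 (16.5-fold), Ndufs3 (12.6-fold) and Ndufb5 (9.0-fold), and in the Cko they were 44.7, 14.0, 8.1 and 18.6-fold. The lowest value of Cox6b2 in the Cko rested on 6 UMIs in B-like cells. Cox7a2l was highest in Myl4-led pro/pre-B-like cells in the WT (908) and, over these 12 classes, also in the Cko (997), where the Wfdc17-led cluster outside them was at 1094. Of the UMIs of Cox7a2 and its paralog Cox7a2l together, Cox7a2l gave 20.6% and 22.5% in immature neutrophil-like cells. In Myl4-led pro/pre-B-like cells it gave 48.3% and 56.6%. Whether its product takes the place of that of Cox7a2 was not tested.

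The comparison of the Cko with the WT, which bears on the question of whether loss of S1P in the osterix lineage changes the marrow, gave small differences for the nuclear members. The log2 ratio of their share ran from -0.28 to 0.07 over 14 classes (the 12 with at least 50 cells in both libraries, erythroid-like cells with 2 to 10% hemoglobin and the Wfdc17-led cluster), and it was below 0 in 10 of them. The mitochondrial members ran from -0.57 to 0.37, below 0 in 9, and without the B-like class the highest was 0.12. In immature neutrophil-like cells the nuclear share was 1.77% in the WT and 1.81% in the Cko (0.03, from 0.02 to 0.05) and the mitochondrial share 1.05% and 1.09% (0.05, from 0.04 to 0.07). No nuclear member of 73 was at least 1.5-fold higher, and 1, Atp5l, was lower, beside 3.74% higher and 2.26% lower among all genes. With the libraries clustered separately, 840 WT and 1035 Cko cells were called neutrophil-like, against 475 and 631, and 12 of 75 members passed this limit. The sign of both group values in these cells changed with the clustering, so no direction can be given.

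The largest group differences lay in the later erythroid-like cells. At 10 to 40% hemoglobin the mitochondrial share was 2.01% (WT) and 1.35% (Cko), a log2 ratio of -0.57 (-0.60 to -0.54). Over 40% it was 0.628% and 0.433% (-0.54, from -0.56 to -0.51), although hemoglobin made up about the same share in the last range (67.9% and 67.2%). In the range from 10 to 40% it made up 21.9% (WT) and 25.5% (Cko), and its part in the difference there was not tested. Over 40% all 12 mitochondrial members were below 0 and 9 were at least 1.5-fold lower, beside 14.2% of all genes, and from 10 to 40% 9 of 12 were, beside 14.6%. mt-Nd3 (29.8 and 10.9 CPM, -1.45), mt-Nd2 (77.5 and 28.5 CPM, -1.44) and mt-Nd4 (229 and 98.7 CPM, -1.22) were lowest and mt-Co1 (1740 and 1598 CPM, -0.12) highest. The nuclear members moved both ways over 40%, with 6 of 72 higher and 5 lower, beside 10.8% higher among all genes, and from 10 to 40% 1 of 75 was higher, beside 3.31%, and 13 were lower. In cells over 40%, Cox6b2 was highest at 1.54 (72.6 and 211 CPM), followed by Cox7a2l at 0.84, Ndufs3 at 0.76 and Ndufs4 at 0.74, and Ndufb5 was lowest at -1.002. In the same cells the ribosomal proteins of the cytoplasm were higher in the Cko for 42 of 94 genes, with a median of 0.56.

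A few members had 1 direction across classes. Cox6b2 was higher in the Cko in all 11 classes in which it reached 100 UMIs, at least 1.5-fold in 7, with log2 ratios from 0.16 to 1.54 and a median of 0.71. Of the 2203 genes that reached this limit in at least 11 classes, 3.77% were above 0 in all of theirs and 1.91% were at least 1.5-fold higher in 7 or more. In erythroid-like cells under 2% hemoglobin it was at 360 and 649 CPM (0.85, from 0.77 to 0.93). Atp5l and Atp5k, small subunits g and e of the membrane part of the ATP synthase, were below 0 in all 14 classes and at least 1.5-fold lower in 6 and 5 of them, with medians of -0.54 (-0.78 to -0.33 over classes) and -0.53 (-0.76 to -0.20). Cox5a, Cox7a2, Ndufa3 and Uqcr11 were also below 0 in all 14. These 6 were 10.3% of the 58 nuclear members that reached 100 UMIs in every class, beside 6.22% of all such genes below 0 and 8.15% above 0, and no nuclear member was above 0 in all 14. The ATP synthase as a group was below 0 in 14 of 14 classes, from -0.33 to -0.005. Complex I was below 0 in 10 of them, complex III in 11 and complex IV in 8. Not every Atp5 gene took this direction, as Atp5c1 was above 0 in 8 classes and Atp5o in 6. The classes of 1 library share its preparation, so a direction common to classes is 1 observation of 2 libraries. Among the mitochondrial members mt-Nd3 was below 0 in all 13 classes with enough UMIs, as 7.72% of the 2203 genes were in all of theirs. None of the 8 mitochondrial members tested in every class had 1 direction in all 14. mt-Nd1, mt-Nd2 and mt-Nd4 were below 0 in 13 of 14, mt-Nd5 in 12 of 13 and mt-Co3 in 12 of 14. mt-Cytb was below 0 in 11 of 14 and mt-Atp6 and mt-Co2 in 9, while mt-Co1 was above 0 in 12 of 14. The share of all genes with such partial counts was not taken.

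**Figure D4:**
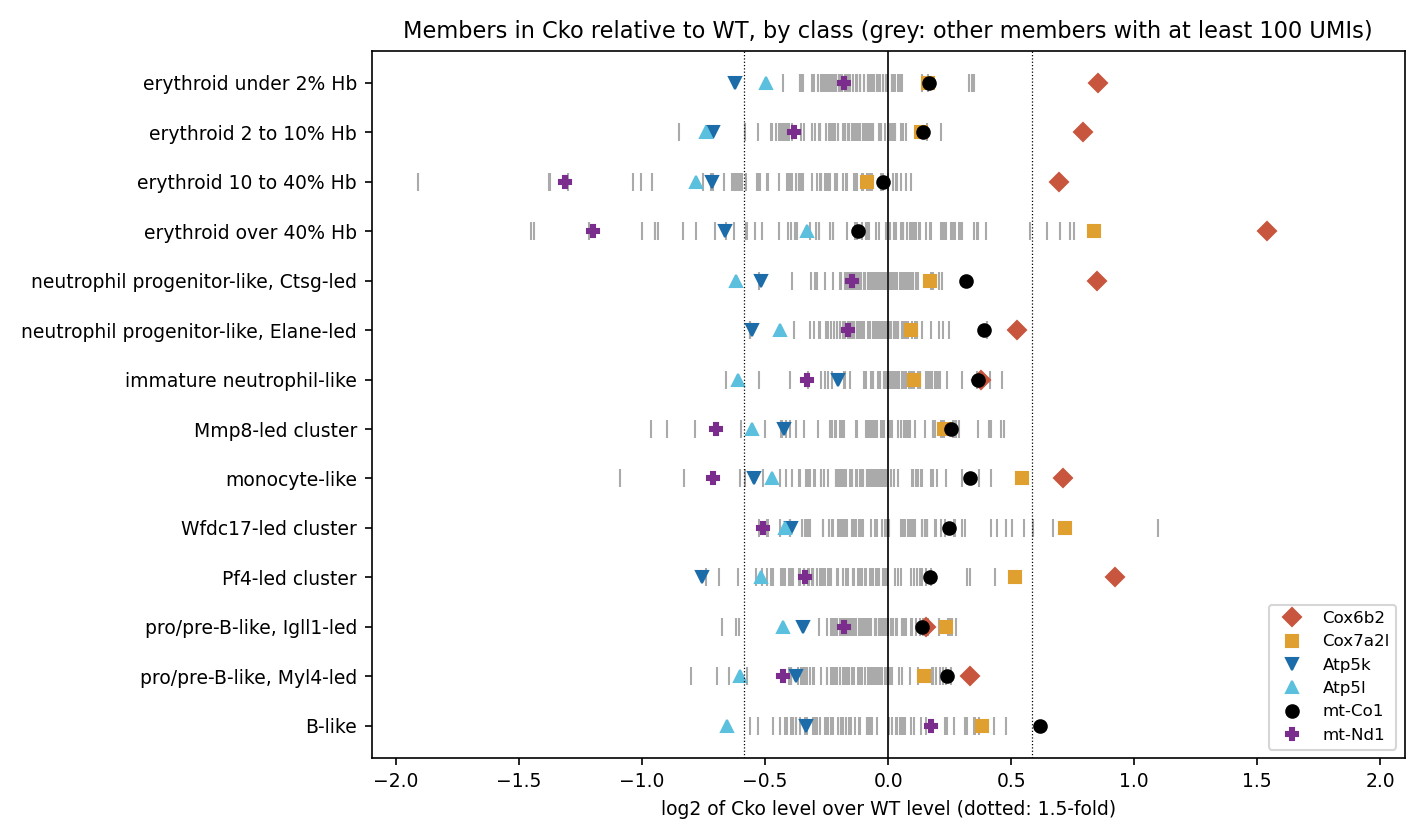
Log2 ratio of the Cko to the WT level of single members (CPM) in 14 classes, with 6 members as coloured symbols, the other members with at least 100 UMIs as grey ticks, and dotted lines at 1.5-fold. Cox6b2 lies above 0 in the 11 classes in which it is drawn (0.16 to 1.54), Atp5l and Atp5k lie below 0 in all 14, and mt-Nd1 is lowest in the erythroid-like cells with 10 to 40% and over 40% hemoglobin.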

How the data were processed

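Droplet Sc-RNA-Seq (10x Chromium 3′ v2) was made from 1 WT and 1 Cko library. The deposited tables hold raw UMI counts per gene and cell, which the authors made with Cell Ranger (version not given in the sources used here), and GRCm38 is the build in the submitters' processing notes. The tables list only genes that reached at least 4 UMIs in some cell, 7181 in the WT and 6735 in the Cko. Rows and columns of totals were dropped, and cells with at least 200 genes were kept. Scrublet marked 127 (2.03%) and 51 (1.39%) cells as doublets, which were kept.

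Cells were clustered jointly with Seurat 5.3.0 in R 4.3.3 (2000 variable genes, 20 principal components, resolution 0.8, mitochondrial and ribosomal shares regressed out, members left out), and 21 clusters gave 18 classes. Clusters were named from marker lists. Clusters in which markers of more than 1 class tied stayed unnamed, a rule set after seeing the data. Counts were summed per class and library with Python 3.11.15 and scipy 1.17.1. Intervals are 95% exact Poisson and conditional intervals, which cover counting error only, and a gene was called with at least 100 UMIs in the 2 sums and a 1.5-fold ratio. The scripts were tested on simulated data.

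Genes named were every mt- member, isoform families, the 3 highest members of each complex, the 3 highest and 3 lowest ratios in each comparison, the 5 widest ranges and members listed in 1 library. Ndufb9, Ndufb11, Atp5f1, Cox6a1, Ndufs4, Atp5l and Atp5k in further comparisons, and the denominator outside neutrophil markers, were chosen after their values were seen. The members and lists were chosen with earlier results of these data known. Promoters are from RefSeq (GRCm38.p6), and gene positions from GENCODE M21 (GRCm38).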

Additional observations from a re-analysis of the deposited data

How the results depend on the processing

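No paired analysis was possible because each genotype is 1 library. Every ratio of late to early erythroid-like cells stayed below 0 under all alternatives. Except for the values outside hemoglobin, all of them keep hemoglobin in the denominator. On that scale 80.2% (WT) and 75.8% (Cko) of all genes were lower, so a sign kept there says little about the members. The main values were -2.18 (nuclear, WT), -2.03 (nuclear, Cko), -2.53 (mitochondrial, WT) and -3.07 (mitochondrial, Cko). In the same order they were -0.55, -0.43, -0.89 and -1.47 outside hemoglobin, -1.92, -1.82, -2.29 and -2.87 with at least 500 genes per cell, -2.23, -2.11, -2.69 and -3.38 as means of single-cell shares, -1.93, -1.86, -2.36 and -2.92 with hemoglobin limits of 1 and 30%, and -2.21, -1.92, -2.64 and -3.01 with libraries clustered separately. Without doublets they were -2.20, -2.07 and, mitochondrial in the WT, -2.59. For genes listed in both libraries the nuclear WT value was -2.19. Without cells over 5% mitochondrial UMIs the mitochondrial values were -2.56 and -3.01. Without the mixed erythroid-like cluster, chosen after seeing the data, and at resolution 0.4, the WT values were -2.19 and -2.59. At resolution 1.2 the mitochondrial values were -2.50 and -3.02, and without regression the WT one was -2.54.

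The Cko to WT ratios in immature neutrophil-like cells (0.03 nuclear, 0.05 mitochondrial) had no stable sign. Separate clustering gave -0.26 and -0.73, but it called 840 WT and 1035 Cko cells neutrophil-like, against 475 and 631, so the cells compared differ. The ratios were 0.0056 and -0.0729 at resolution 0.4, -0.0186 and -0.0667 without regression, and 0.0061 and -0.0718 with members in the clustering. Added after seeing the data, they were -0.0237 and -0.0703 with the Mmp8-led cluster counted and -0.0065 and 0.0135 outside neutrophil markers. The mitochondrial ratio was 0.0325 without doublets and 0.00413 as a mean of single-cell shares. The count of nuclear members past 1.5-fold, 1, became 12 with separate clustering and was 1 under the other 14 alternatives. The cause of these shifts was not tested.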

Other observations

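In the step from Elane-led progenitors to immature neutrophil-like cells, counted outside the immature neutrophil markers, 4 of 13 glycolysis genes were at least 1.5-fold higher and 1 lower in the WT (median 0.34), beside 30.5% higher among all genes, and 2 of 12 were higher in the Cko (median 0.42), beside 31.8%. These counts are not above the background. Hk1, a hexokinase, was at 1.48 (WT) and 0.43 (Cko), and Hk2 at 0.89 and 0.86. From Igll1-led to Myl4-led pro/pre-B-like cells glycolysis genes were lower for 7 of 10 and 6 of 9, beside 17.8% and 19.7% of all genes, with Ldha, lactate dehydrogenase A, at -2.15 and -2.33. Myc, a transcription factor of growing cells, was at -4.26 and -2.91 in the neutrophil step and at -5.28 and -4.20 in the B lineage step.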
